A study of Mus musculus with 2 samples.

Results

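The genes described here encode the receptors by which a cell detects foreign or misplaced nucleic acid, their adaptors, and the interferon gene that some of them can switch on. They were fixed by name and comprised Ifih1, Dhx58, Zbp1, Eif2ak2, Mavs, Sting1, Cgas, Aim2, Tlr7 and Ifnb1. All 10 had exactly 1 row among the 32544 genes of the tables. The first 9 are called sensors below, although Mavs and Sting1 act as adaptors and Tlr7 sits in endosomes rather than in the cytosol.

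Separate groups of receptors meet at the same target. RNA in the cytosol is bound by the helicases of Ifih1 (MDA5) and Dhx58 (LGP2), and the signal passes through the mitochondrial adaptor Mavs. DNA in the cytosol is bound by the enzyme of Cgas, whose cyclic dinucleotide product is read by Sting1 at the endoplasmic reticulum. Both routes activate interferon regulatory factors (IRFs), which together with NF-kB induce Ifnb1, the gene of interferon beta. Secreted interferon then induces interferon-stimulated genes (ISGs), and several of the sensors belong to these. Interferon beta is also known as a restraint on the formation of osteoclasts (OCs), the bone-resorbing cells that arise from monocytes and macrophages.

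Single-cell mRNA sequencing compared 1 control library with 1 library of genotype LysM-Cre;Arid1afl/fl, called the mutant library from here on. Both came from bone marrow-derived monocytes (BMDMs) of 4- to 6-week-old mice, per the study's general culture methods, kept with M-CSF at 50 ng/ml and RANKL at 100 ng/ml and collected 24 h after RANKL induction. LysM-Cre is driven by the Lyz2 promoter, which is active in myeloid cells, and deletes floxed exons of Arid1a, whose product belongs to the BAF chromatin remodeler. The labels give the control no alleles beyond that word, and neither the strain of the individual animals nor the number of animals behind a library was given in the sources used here. With 1 library per genotype there was no test across samples. Ranges in parentheses are 95% counting intervals, which leave out biological variation, and the differences describe these libraries rather than the genotypes.

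Unique molecular identifiers (UMIs) mark single captured transcripts. Cells with at least 500 genes and at most 10% mitochondrial UMIs were kept, which left 6269 of 6455 control and 5663 of 5865 mutant barcodes, with 163618835 and 131469887 UMIs. The median depth was 23978 and 21734 UMIs per cell, and the median mitochondrial share was 2.04% and 1.27%. The libraries shared 8 barcodes. Arid1a was at 51.9 and 20.4 counts per 1e6 UMIs (CPM), although a 3′ count does not read the deleted exons and so does not check the deletion. Summed macrophage and monocyte markers (8 genes) were at 12006 and 7900 CPM, none of them at 0. Most of that sum was Lyz2, the locus of the Cre allele, at 10803 and 5432 CPM, and the other 7 summed to 1203 and 2469 CPM. The summed OC markers (6 genes) were at 263 and 112 CPM. Neutrophil markers (4 genes) were higher in the mutant library, at 264 and 1982 CPM, as were class II markers (4 genes) at 28.7 and 116 CPM and stromal markers (4 genes) at 4.42 and 11.4 CPM.

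Ifnb1 is a known output of the MDA5 and cGAS routes, Ifih1 was the sensor that differed most in cells with Ifnb1 transcripts, and Mavs was an adaptor with a lower level in the mutant library. The 250 bases before their transcription starts are therefore shown, from RefSeq on GRCm38.p6 and read 5′ to 3′ along the gene. Capitals mark matches on either strand to the IRF core, searched as AANNGAAA.
Ifnb1, chr4:88522795-88523044, minus strand: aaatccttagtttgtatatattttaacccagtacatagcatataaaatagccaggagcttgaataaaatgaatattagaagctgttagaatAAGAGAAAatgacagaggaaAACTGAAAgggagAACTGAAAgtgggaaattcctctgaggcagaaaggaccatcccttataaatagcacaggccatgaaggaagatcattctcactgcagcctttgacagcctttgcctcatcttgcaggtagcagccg
Ifih1, chr2:62646256-62646505, minus strand: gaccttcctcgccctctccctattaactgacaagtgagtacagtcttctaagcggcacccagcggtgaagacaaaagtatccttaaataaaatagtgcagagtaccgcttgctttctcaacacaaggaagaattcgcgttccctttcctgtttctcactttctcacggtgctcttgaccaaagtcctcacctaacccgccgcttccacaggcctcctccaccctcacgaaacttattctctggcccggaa
Mavs, chr2:131233813-131234062, plus strand: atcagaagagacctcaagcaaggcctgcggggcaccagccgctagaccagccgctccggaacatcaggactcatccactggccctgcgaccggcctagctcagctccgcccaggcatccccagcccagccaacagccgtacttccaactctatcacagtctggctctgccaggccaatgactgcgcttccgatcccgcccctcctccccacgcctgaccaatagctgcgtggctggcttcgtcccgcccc

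The Ifnb1 promoter held 3 matches to the IRF core, at 159 to 152, 139 to 132 and 126 to 119 bases before the start. The last 2 lie in the stretch known as the virus-inducible enhancer of this gene. None of the 250-base windows of Ifih1, Mavs, Eif2ak2, Cgas and Aim2 held the core. The longer ISRE, searched as GAAANNGAAA and containing the core, had no match in any of these 6 promoters. Among all 32851 promoters of that length, 21.3% held the core and 2.98% the ISRE on either strand. These are letter matches in 1 window and say nothing about binding in these cells. Dhx58, Zbp1, Tlr7 and Sting1 had no promoter in the table.

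Across all cells, 7 of the 9 sensors had a higher level in the mutant library, and the pair of adaptors had a lower one. Zbp1, Ifih1 and Dhx58 were each at least 2-fold higher. The median log2 ratio of mutant over control over the 9 sensors was 0.64, against 0.052 over the 8650 genes that averaged 5 CPM or more across the libraries. Among those genes 5.9% were at least 2-fold higher and 1.62% at least 2-fold lower, against 3 and 0 of the 9 sensors, all of which passed that filter. Ifnb1 did not pass it and is described apart.

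**Figure D1:**
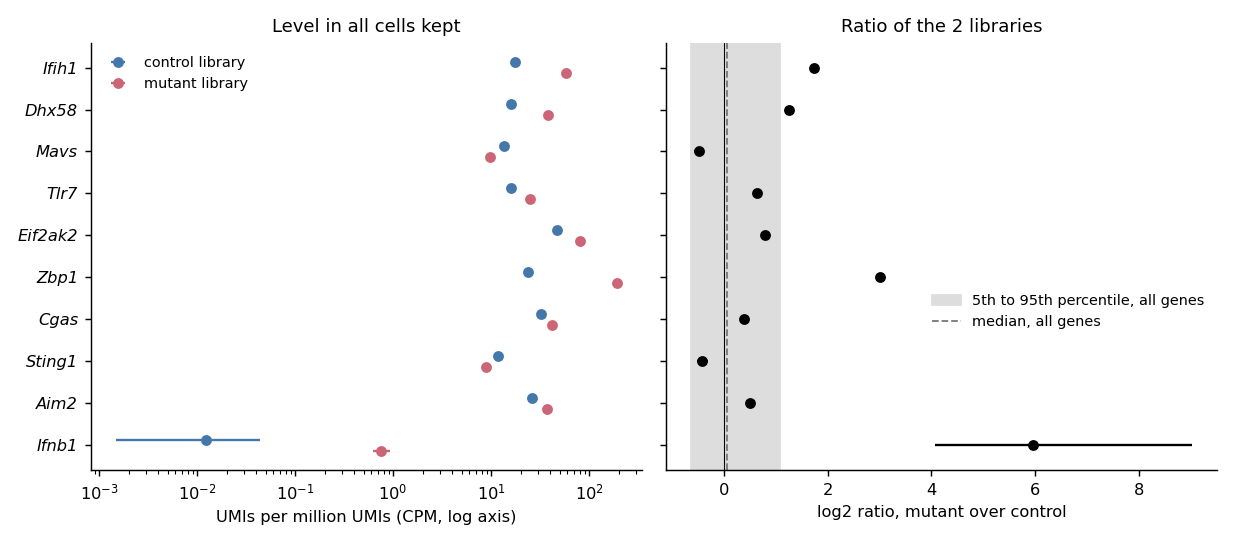
Left, level of each gene in the control and the mutant library (CPM, log axis), with 95% counting intervals that are narrower than the points except for Ifnb1. Right, log2 ratio of mutant over control with its interval, beside the range from the 5th to the 95th percentile (-0.63 to 1.09) and the median of all genes with at least 5 CPM; Zbp1, Ifih1 and Dhx58 lie to the right of that range, as does Ifnb1, which is not in that set of genes.

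Of the RNA receptors, Ifih1 (chromosome 2, 62425714 to 62476607, minus strand, 16 exons, GRCm39) binds long double-stranded RNA. It was at 17.6 CPM (17.0 to 18.3; 2882 UMIs) in control cells and 58.7 CPM (57.4 to 60.0; 7715 UMIs) in mutant cells. The log2 ratio was 1.74 (1.67 to 1.80), and the intervals of the libraries were far apart. Dhx58 (chromosome 11, 100585710 to 100595097, minus strand) lacks the signaling domain of its relatives and is known as a regulator of the MDA5 protein. It was at 16.0 CPM (15.4 to 16.7) and 38.0 CPM (37.0 to 39.1), a log2 ratio of 1.25 (1.18 to 1.32). The level of Tlr7 (chromosome X, 166086758 to 166113605, minus strand), an endosomal receptor of single-stranded RNA, was 16.1 CPM (15.5 to 16.8) and 25.1 CPM (24.3 to 26.0). Its log2 ratio of 0.64 (0.56 to 0.71) was the middle value of the 9 sensors.

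Mavs (chromosome 2, 131075442 to 131096740, plus strand), the adaptor through which MDA5 signals, went the opposite way. Its level was 13.6 CPM (13.03 to 14.2; 2223 UMIs) in control cells and 9.73 CPM (9.20 to 10.3; 1279 UMIs) in mutant cells. This gave a log2 ratio of -0.48 (-0.58 to -0.38).

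The largest ratio among the sensors belonged to Zbp1 (chromosome 2, 173033815 to 173060724, minus strand), a receptor of nucleic acid in the Z form that can start necroptosis. It was at 23.7 CPM (23.0 to 24.5; 3878 UMIs) in control cells and 191 CPM (189 to 193; 25110 UMIs) in mutant cells. The difference was 8.06-fold, or 3.01 on the log2 scale (2.96 to 3.06). Eif2ak2 (chromosome 17, 79159972 to 79190012, minus strand) encodes PKR, a kinase that halts translation when it binds double-stranded RNA. Its level was 46.7 CPM (45.7 to 47.8) and 81.1 CPM (79.5 to 82.6), a log2 ratio of 0.79 (0.75 to 0.84).

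The DNA side differed less. Cgas (chromosome 9, 78337802 to 78350535, minus strand) was at 32.5 CPM (31.6 to 33.3) and 42.3 CPM (41.2 to 43.4), a log2 ratio of 0.38 (0.33 to 0.44). Aim2 (chromosome 1, 173178445 to 173293930, plus strand), which assembles an inflammasome on DNA, was at 26.1 CPM (25.4 to 26.9) and 37.1 CPM (36.1 to 38.2), a log2 ratio of 0.51 (0.45 to 0.57). Sting1 (minus strand, 8 exons) was at 11.7 CPM (11.2 to 12.3; 1922 UMIs) and 8.83 CPM (8.33 to 9.35; 1161 UMIs). As with Mavs, the adaptor of the DNA route was the lower of its pair in the mutant library, at a log2 ratio of -0.41 (-0.52 to -0.31).

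Dhx58, Mavs, Eif2ak2, Cgas and Aim2 overlap annotated genes on the opposite strand. It was not stated whether counting used strand, so reads of such pairs cannot be told apart with certainty. The cells of the neutrophil, stromal and class II gates, defined by their share of marker UMIs, numbered 17, 2 and 5 in the control and 83, 3 and 35 in the mutant library. Without them the log2 ratios were 3.02 for Zbp1, 1.73 for Ifih1, -0.48 for Mavs and -0.44 for Sting1, so these values were as large in the other cells. In the mutant class II-gate cells Sting1 was at 58.7 CPM (37.2 to 88.0; 23 UMIs), above the 8.70 CPM (8.20 to 9.22) of the 5542 mutant cells outside the gates. The 5 control cells of that gate had 1 Sting1 UMI. With totals that leave out mitochondrial and ribosomal protein genes, which moved the median of all genes by -0.11, every sensor kept its sign.

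Summed levels could come from a few cells, so cells were also compared at an equal depth of 5000 UMIs each, which 168 control and 351 mutant cells did not reach. Zbp1 was detected in 10.1% of the control (9.40 to 10.9%) and 57.3% of the mutant library (56.0 to 58.6%). Ifih1 was detected in 7.97% (7.30 to 8.67%) and 24.5% (23.4 to 25.7%), and Dhx58 in 7.44% (6.80 to 8.13%) and 17.3% (16.3 to 18.3%). For Zbp1 the higher level was thus spread over many mutant cells. Eif2ak2 had 19.96% (19.0 to 20.99%) and 33.1% (31.8 to 34.4%), and Tlr7 7.56% (6.91 to 8.25%) and 11.7% (10.9 to 12.6%). Mavs was found in 6.11% (5.53 to 6.74%) of control and 4.80% (4.24 to 5.41%) of mutant cells, and Sting1 in 5.57% (5.01 to 6.18%) and 4.37% (3.83 to 4.95%). All these shares are bounded by depth. Without thinning they were 31.4% and 88.2% for Zbp1 and 31.7% and 63.6% for Ifih1.

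Free RNA in the droplets gives a background to such shares. Neutrophil-gate cells served as the nearest comparison, at median depths of 7523 UMIs in 15 control cells and 10765.5 UMIs in 70 mutant cells. They can themselves respond to interferon, and their own transcripts cannot be told apart from free RNA here. The cells of all kinds at this depth had medians of 24266 and 22412 UMIs. Zbp1 was found in 30% of the mutant neutrophil-gate cells (19.6 to 42.1%) and Ifih1 in 18.6% (10.3 to 29.7%). The first share lay below that of all mutant cells, while the second overlapped with it, so the Ifih1 share does not stand above that of these few cells. The same held for Eif2ak2, found in 24.3% (14.8 to 36.0%) of the mutant neutrophil-gate cells, and for Tlr7, found in 7.14% (2.36 to 15.9%). The Dhx58 share there, 5.71% (1.58 to 14.0%), lay below that of all mutant cells. In the 15 control neutrophil-gate cells Zbp1 and Ifih1 were found in 0 cells, which allows a share of up to 20%. Mavs was found in 1.43% (0.0362 to 7.70%) and Sting1 in 4.29% (0.893 to 12.0%) of the mutant neutrophil-gate cells. These wide intervals overlapped with the shares of all mutant cells too.

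Counted together at 5000 UMIs, at least 1 of the 9 sensors was detected in 61.3% of control and 88.7% of mutant cells. The mean number per cell was 0.92 and 1.88. At least 3 sensors were detected in 6.23% of control cells and 28.0% of mutant cells, and no cell had more than 7.

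**Figure D2:**
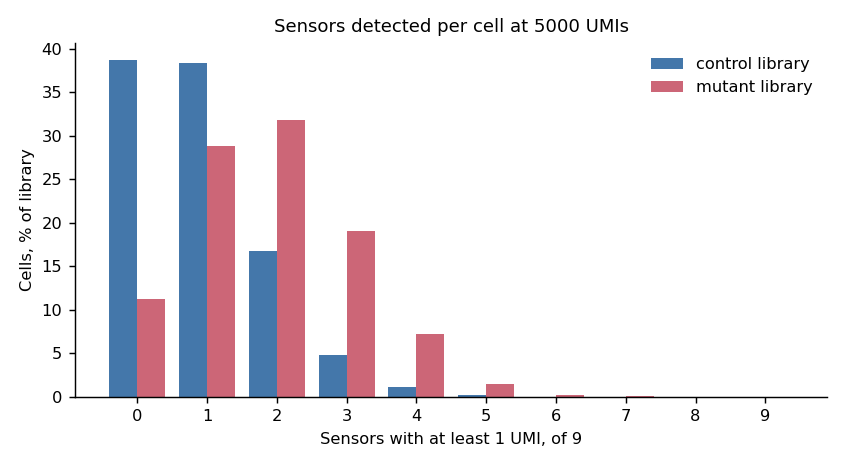
Share of cells of each library (y axis, %) by the number of the 9 sensors with at least 1 UMI (x axis), in cells thinned to 5000 UMIs. Control cells peak at 0 sensors (38.7%) and mutant cells at 2 sensors (31.8%).

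Whether the levels depended on differentiation was asked by sorting cells into states. After thinning to 5000 UMIs, cells holding 3 or more UMIs of Dcstamp, Acp5, Mmp9 and Ctsk together formed the OC gate. The cycling gate likewise took cells holding 3 or more UMIs of Cdk1, Aurka, Top2a and Mki67. Neither gate held 3359 control and 3422 mutant cells. The cycling gate alone held 2176 and 1715 cells, the OC gate alone 331 and 116, and both gates 235 and 59. Shares of cells in the OC gate differed between the libraries, so levels within it compare unlike fractions of the cultures. The gate genes also differed unequally over all cells. Acp5 was at 105 CPM in the control and 69.0 CPM in the mutant library, and Ctsk at 57.0 and 20.5 CPM. Mmp9 was at 58.0 and 6.05 CPM and Dcstamp at 11.8 and 2.30 CPM. Which of them placed a cell in the gate was not tested.

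In the control library several sensors were lower in OC-gate cells. The control level of Tlr7 was 18.8 CPM (17.9 to 19.8) in the neither state and 16.3 CPM (15.3 to 17.3) in cycling cells, but 3.20 CPM (2.18 to 4.54) in the OC gate alone and 2.78 CPM (1.74 to 4.21) in both gates. Control Zbp1 had the same order, from 30.2 CPM (29.1 to 31.5) through 19.4 CPM (18.3 to 20.5) to 9.61 CPM (7.75 to 11.8) and 7.08 CPM (5.35 to 9.19). The last 2 values overlapped. Control Sting1 was at 13.3 CPM (12.5 to 14.1) in the neither state, 11.5 CPM (10.7 to 12.3) in cycling cells, 5.37 CPM (4.01 to 7.04) in the OC gate alone and 5.94 CPM (4.36 to 7.90) in both gates.

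For Zbp1, mutant cells of the OC gate alone did not show such a low level. Mutant Zbp1 was at 197 CPM (194 to 200) in the neither state, 181 CPM (178 to 185) in cycling cells, 205 CPM (189 to 222) in the OC gate alone and 136 CPM (120 to 155) in both gates. Its log2 ratio of mutant over control was therefore 2.70 (2.64 to 2.77) in the neither state and 4.41 (4.10 to 4.75) in the OC gate alone. Mutant Tlr7 was at 26.0 CPM (24.9 to 27.2) in the neither state and 17.9 CPM (13.4 to 23.4) in the OC gate alone, so its log2 ratio was 0.47 (0.37 to 0.56) and 2.48 (1.82 to 3.17). Mutant cells of both gates had 15.1 CPM of Tlr7 (9.94 to 21.9), so mutant Tlr7 too was lower in OC-gate cells. The intervals of these ratios did not overlap between the states for Zbp1 or for Tlr7. The sizes depended on the gate: in the OC gate alone, Zbp1 was at 5.07 with doublets removed and 3.29 with states from unthinned counts, where Tlr7 was at 1.11.

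Ifih1 had a similar range, with control levels of 18.9 CPM (18.0 to 19.9) in the neither state and 12.9 CPM (10.7 to 15.4) in the OC gate alone. The mutant levels were 59.1 CPM (57.5 to 60.9) and 70.2 CPM (61.0 to 80.4). The OC-gate value was the highest Ifih1 level of the 8 groups formed by library and state, and did not overlap with the next. Ifih1 ratios were 1.64 (1.56 to 1.73) and 2.44 (2.12 to 2.77), but with states from unthinned counts the second was 1.83. For Dhx58 the log2 ratio was 1.04 (0.95 to 1.13) in the neither state, 1.40 (1.29 to 1.51) in cycling cells, 1.54 (1.14 to 1.93) in the OC gate alone and 2.22 (1.66 to 2.78) in both gates. In the OC gate alone it ranged from 1.13 with states from unthinned counts to 2.28 with states at 2000 UMIs.

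Eif2ak2, Cgas and Aim2 had smaller ratios. Mutant Eif2ak2 lay between 77.5 and 87.3 CPM and control Eif2ak2 between 36.9 and 48.5 CPM, so that the lowest mutant state was above the highest control state. Its log2 ratio was 0.71 (0.65 to 0.77) in the neither state and 1.14 (0.90 to 1.38) in the OC gate alone. Cgas was highest in cycling cells of both libraries, at 37.9 CPM (36.4 to 39.4) among control cells and 51.3 CPM (49.2 to 53.4) among mutant cells. The mutant level in both gates, 48.0 CPM (38.4 to 59.3), overlapped with both of these. Cgas was lowest in the OC gate alone, at 22.1 CPM (19.2 to 25.3) among control cells and 30.7 CPM (24.7 to 37.7) among mutant cells. Aim2 log2 ratios lay between 0.48 and 0.66 in the 4 states.

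The adaptors differed from this pattern. Mavs was lower in the mutant library in every state, with log2 ratios of -0.47 (-0.61 to -0.34) in the neither state and -0.49 (-0.65 to -0.33) in cycling cells. Its intervals included 0 in the OC gate alone (-0.56, from -1.18 to 0.010) and in both gates (-0.28, from -1.12 to 0.48). For Sting1 the log2 ratio was -0.75 (-0.89 to -0.60) in the neither state and -0.11 (-0.28 to 0.055) in cycling cells. In the OC gate alone it was 0.53 (-0.24 to 1.27), from 52 control and 23 mutant UMIs, and in both gates -0.41 (-1.70 to 0.68), neither of which is distinguishable from 0 at this depth. Mutant Sting1 was lowest in both gates, at 4.47 CPM (1.93 to 8.81).

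**Figure D3:**
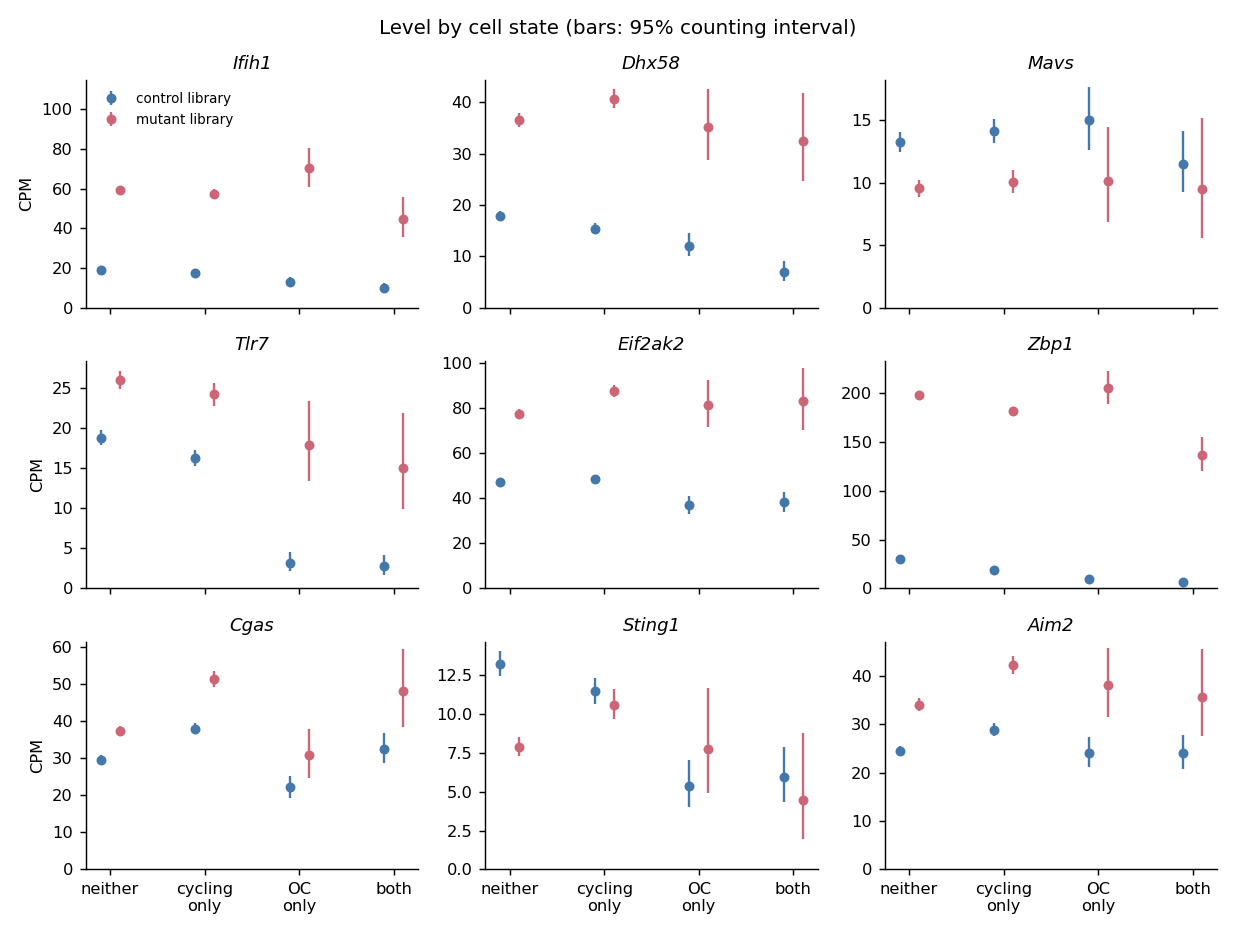
Level of each sensor in CPM (y axis, from 0) in the 4 states (x axis) of the control and the mutant library, with 95% counting intervals. Control Tlr7, Zbp1 and Sting1 are lower in the OC-gate states than in the neither state. Mutant Zbp1, Ifih1, Dhx58, Eif2ak2 and Aim2 stay above every control value, though some Aim2 intervals overlap.

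Over the 9 sensors the median log2 ratio was 0.48 in the neither state, 0.57 in cycling cells, 1.14 in the OC gate alone and 1.13 in both gates. The number at least 2-fold higher was 3, 3, 5 and 5. The share of all genes at least 2-fold higher in the same cells was 5.02%, 6.03%, 11.5% and 10.9%. No sensor was 2-fold lower in any state. Over all cells the share of all genes at least 2-fold lower was 1.62%, so 0 of 9 does not set the sensors apart.

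Several sensors are ISGs, so they were set beside 6 other ISGs (Isg15, Ifit1, Rsad2, Usp18, Oasl2 and Irf7). Cells were binned by the UMIs of these 6 genes per 5000 UMIs, a comparison chosen after the data had been seen. None of the 6 was detected in 36.6% of control cells (2230 cells) and 0.697% of mutant cells (37 cells). At least 21 UMIs were held by 0.820% of control cells (50 cells) and 5.35% of mutant cells (284 cells).

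In both libraries the levels of Ifih1, Dhx58, Eif2ak2 and Zbp1 were higher in cells with more UMIs of the other ISGs. Control Ifih1 went from 11.01 CPM (10.2 to 11.9) in the lowest bin to 116 CPM (98.4 to 137) in the highest. Mutant Ifih1 went from 29.6 CPM (17.3 to 47.4) to 157 CPM (147 to 168). Control Dhx58 went from 10.2 CPM (9.39 to 11.01) to 57.0 CPM (44.6 to 71.8), and mutant Dhx58 from 22.7 CPM (12.1 to 38.7) to 61.4 CPM (55.2 to 68.2). In the highest bin the libraries overlapped for Dhx58, and for Eif2ak2 at 108 CPM (90.4 to 127) and 109 CPM (101 to 118). Tlr7 and Aim2 were also higher in the highest bin than in the lowest. Control Tlr7 went from 13.2 to 29.3 CPM and mutant Tlr7 from 8.71 to 36.0 CPM. Control Aim2 went from 25.3 to 57.8 CPM and mutant Aim2 from 26.1 (14.6 to 43.1) to 49.2 CPM (43.6 to 55.2). Cgas overlapped between these bins in both libraries. Mutant Cgas was at 46.1 CPM (40.8 to 51.8) at 1 to 2 UMIs and 30.5 CPM (26.1 to 35.3) in the highest bin.

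For Zbp1 the libraries stayed apart in all 6 bins, while for Ifih1 they overlapped at 11 to 20 UMIs. With none of the 6 ISGs detected it was at 9.20 CPM (8.45 to 9.99) in control and 85.4 CPM (63.2 to 113) in mutant cells. At 6 to 10 UMIs it was at 77.8 CPM (71.9 to 84.0) and 178 CPM (174 to 181), and in the highest bin at 142 CPM (122 to 164) and 379 CPM (363 to 395). Mavs varied less, with control levels between 11.1 and 14.6 CPM and mutant levels between 6.97 and 10.9 CPM over the 6 bins. Sting1 was at 10.6 CPM (9.82 to 11.5) in the lowest and 17.4 CPM (10.9 to 26.4) in the highest control bin, which overlapped with the mutant 11.8 CPM (9.14 to 14.9) there.

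**Figure D4:**
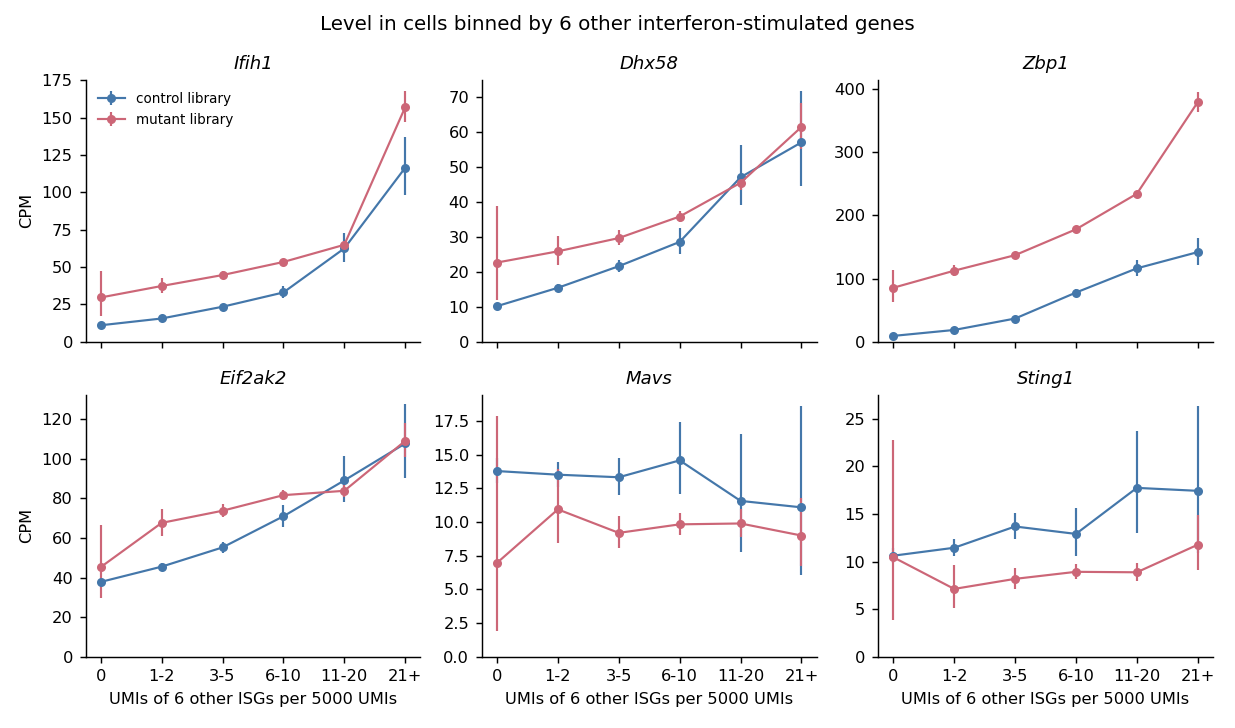
Level of 6 of the sensors in CPM (y axis, from 0) in cells binned by the UMIs of Isg15, Ifit1, Rsad2, Usp18, Oasl2 and Irf7 per 5000 UMIs (x axis), with 95% counting intervals. The libraries meet in the highest bin for Dhx58 and Eif2ak2 and stay apart for Zbp1 (142 against 379 CPM).

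Ifnb1 itself (chromosome 4, 88440262 to 88441011, minus strand, 1 exon) was rare. The control library held 2 UMIs, both in the same cell, and the mutant library 100 UMIs in 32 cells. That is 0.0160% of the control (0.000404 to 0.0888%) and 0.565% of the mutant cells (0.387 to 0.797%). The level was 0.0122 CPM (0.00148 to 0.0442) and 0.761 CPM (0.619 to 0.925), a log2 ratio of 5.96 (4.07 to 9.02). These intervals take UMIs as independent, which those of the same cell are not, so they are too narrow here. At 5000 UMIs the shares were 0 of 6101 control cells, which allows a share of up to 0.0492%, and 0.282% of mutant cells (0.158 to 0.465%). No Ifnb1 UMI was found in the neutrophil-gate cells, and 0 of 70 mutant cells there at 5000 UMIs allows a share of up to 4.29%, too high a limit to serve as a background.

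The counts were concentrated in few cells. The cell with the most had 17 UMIs, and the 4 highest held 45 of the 100, whereas 14 cells had 1 UMI. Of the 32 cells, 24 were in the neither state, 7 in the cycling gate alone and 1 in the OC gate alone. Among the other mutant cells the shares in these states were 60.3%, 30.3% and 2.04%, against 75.0%, 21.9% and 3.13% here. By the other ISGs, 29 of the 32 cells were in the highest bin, and these held 97 of the 100 UMIs. The control cell with Ifnb1 also had Ifih1, Zbp1 and Aim2, at 5, 5 and 8 UMIs.

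The 32 cells were shallower than the other mutant cells, with medians of 18927.5 against 21756 UMIs and 3554.5 against 4291 genes. Their median mitochondrial share was 0.669% against 1.28%. Of the 32 cells, 2 were among the barcodes scored as doublets. Markers of plasmacytoid dendritic cells (5 genes), a known source of interferon, were at 0 in all 32 cells, as were those of stromal cells (4 genes), T and NK cells (3 genes) and mast cells (2 genes). The macrophage markers summed to 5556 CPM against 7913 CPM in the other mutant cells, with none of the 8 at 0. Without Lyz2, which was lower at a log2 ratio of -1.23, they summed to 3234 CPM against 2464 CPM. The higher sum rested on Fcgr1, an Fc receptor gene, at 917 CPM against 131 CPM (2.81). Csf1r, the M-CSF receptor gene, was at -0.87 (-1.11 to -0.65), Dab2 at -1.11 (-1.46 to -0.78) and Mrc1 at -2.01 (-3.88 to -0.65). Lgmn was at 0.52 (0.39 to 0.64) and Cd68 at 0.23 (0.099 to 0.36), and the interval of Adgre1 (-0.090) included 0. Class II markers summed to 183 CPM against 115.4 CPM, with Cd74 at 1.09 (0.79 to 1.38). The intervals of H2-Aa (-1.12), H2-Ab1 (0.40) and H2-Eb1 (0.089) included 0. OC markers summed to 129.8 CPM against 111.5 CPM. Of these Ctsk was at 1.32 (0.80 to 1.79), and Dcstamp had 0 UMIs. The intervals of Acp5 (-0.026), Mmp9 (-1.10), Atp6v0d2 (-1.36) and Ocstamp (0.53) included 0. The B-cell markers (3 genes) had 3 UMIs and the neutrophil markers 6 UMIs in these cells. The part of these differences in the sensor levels was not tested.

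In the cells with Ifnb1 the sensors differed from one another. Ifih1 was the farthest from the other mutant cells, at 348 CPM (306 to 395) against 57.1 CPM (55.8 to 58.4) there, a log2 ratio of 2.61 (2.42 to 2.79). It was detected in 30 of the 32 cells, with a median of 5.5 and a highest count of 30 UMIs per cell, against a median of 1 UMI in the other cells. Dhx58, its close relative, was at 52.2 CPM (36.8 to 72.0) against 38.0 CPM (36.9 to 39.04), and the interval of its log2 ratio included 0 (0.46, from -0.049 to 0.92).

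Zbp1 was found in all 32 cells, at a median of 10.5 UMIs against 4 UMIs in the others, with a log2 ratio of 1.44 (1.29 to 1.59). For Tlr7 it was 1.32 (0.85 to 1.75), for Eif2ak2 0.92 (0.63 to 1.19) and for Aim2 0.61 (0.12 to 1.06). The DNA receptor Cgas and both adaptors were not distinguishable from the other cells at this depth, at -0.52 (-1.21 to 0.097) for Cgas, -0.20 (-1.65 to 0.92) for Mavs and -0.33 (-1.95 to 0.90) for Sting1. These rest on 21, 6 and 5 UMIs. In all, 3 of the 9 sensors were at least 2-fold higher and 0 at least 2-fold lower, where 5.41% of all genes were higher and 18.4% lower. The median over the sensors was 0.61, against -0.34 over all genes. The cells with Ifnb1 held 708763 UMIs together, so genes near 5 CPM had few UMIs there. Counting error alone can carry such genes past 2-fold, and the shares and median of all genes include them.

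**Figure D5:**
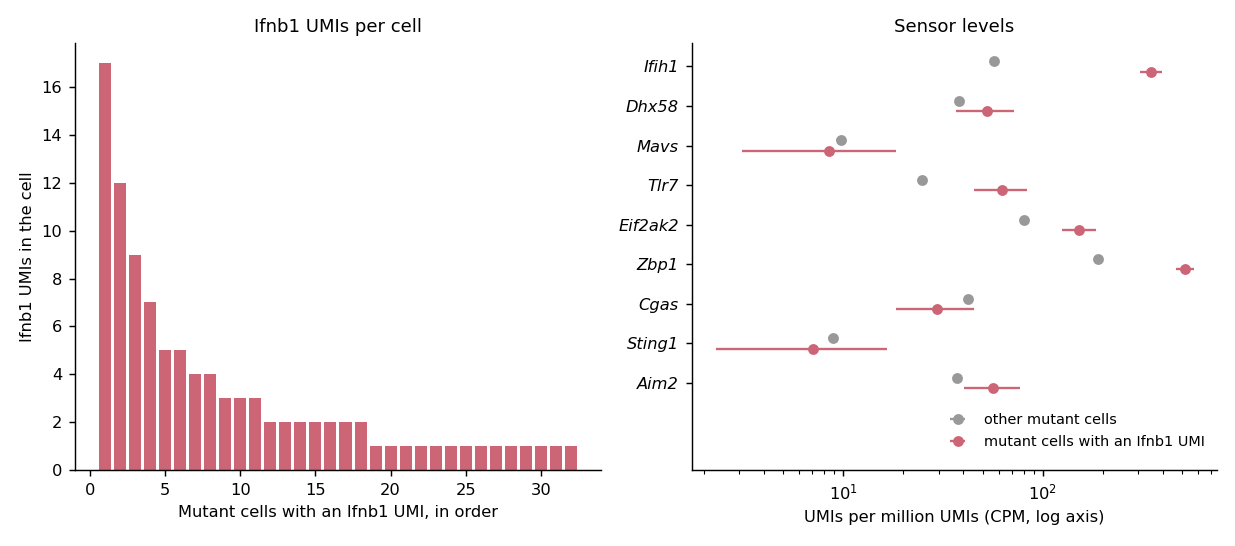
Left, Ifnb1 UMIs (y axis) in each of the 32 mutant cells with at least 1, in falling order. Right, level of each sensor in CPM on a log axis in those cells and in the other mutant cells, with 95% counting intervals; the sets are farthest apart for Ifih1 (348 and 57.1 CPM).

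Since the cells with Ifnb1 were also those with many other ISG transcripts, they were set beside the other mutant cells of the highest ISG bin, again a comparison added after the data had been seen. This left 29 cells with and 255 cells without Ifnb1. The bin has no upper limit, so these sets were not matched for ISG level, and the part of that in the ratios was not tested. Ifih1 was at 395 CPM (347 to 448) and 128 CPM (119 to 139), a log2 ratio of 1.62 (1.40 to 1.83). Tlr7 was at 61.5 CPM (43.5 to 84.4) and 32.9 CPM (28.2 to 38.3), a log2 ratio of 0.90 (0.35 to 1.42). The ratio was 0.72 (0.41 to 1.03) for Eif2ak2, 0.68 (0.51 to 0.84) for Zbp1, 0.23 (-0.32 to 0.75) for Aim2 and -0.27 (-0.85 to 0.25) for Dhx58. The intervals of the last 2 included 0. The Ifih1 level of the 255 cells overlapped with that of the 50 control cells of the same bin given above.

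Other genes of the pathways were taken as whole lists, whose counts stand against the 5.9% of all genes that were at least 2-fold higher and the 1.62% that were lower. Of 8 further receptors and their chaperone, 5 were past 5 CPM, and 3 of these were at least 2-fold higher in the mutant library and 0 lower. Those were the RNA helicase gene Ddx58 (RIG-I) at 48.7 and 138 CPM, Tlr13 at 25.0 and 61.0 CPM, and Tlr3, an endosomal receptor of double-stranded RNA, at 4.60 and 14.1 CPM. In the cells with Ifnb1, Tlr3 was at 70.5 CPM (52.4 to 93.0) against 13.8 CPM (13.1 to 14.4) in the other mutant cells, and Ddx58 at 250 CPM (214 to 289) against 138 CPM (136 to 140). Tlr9, the endosomal DNA receptor, had 5 UMIs in each library.

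Of 14 adaptors, kinases and factors between sensor and interferon gene, 13 were past 5 CPM, 3 were at least 2-fold higher (5.9% of all genes) and 0 lower (1.62%), with a median log2 ratio of 0.34. The highest was Irf7, the interferon-induced member of the IRF family, at 78.7 and 612 CPM (log2 ratio 2.96). Rnf135, a ubiquitin ligase of RIG-I, was at 1.38 and the kinase gene Ikbke at 1.07 (1.01 to 1.14), close to the 2-fold line. Irf3 and Tbk1, which are expressed in resting cells, were at 0.18 and 0.34. None of the 10 genes that restrain the response to self nucleic acid was 2-fold different among the 8 past 5 CPM, although the RNA editing gene Adar was at 0.99 and Samhd1, which depletes nucleotides, at 0.83. Trex1, an exonuclease gene, was listed at 0 in both libraries. It overlaps Atrip on the same strand, and whether reads in such overlaps were counted was not stated, so the 0 is not read as absence.

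Among 9 partners of Aim2 and Zbp1 in inflammasomes and necroptosis, 8 were past 5 CPM and 2 were at least 2-fold higher (5.9% of all genes), Il18 at 1.37 and Casp1 at 1.01. The interval of Casp1 (0.96 to 1.05) includes the 2-fold line. The necroptosis genes Ripk3 and Mlkl were at 0.69 and 0.67. Around Eif2ak2, 1 of 10 genes was at least 2-fold higher and 0 lower, where 5.9% and 1.62% of all genes were. That was Ddit3, a transcription factor of the integrated stress response, at 10.9 and 48.6 CPM (2.15, from 2.08 to 2.23). The symbol Ddit3 had 2 rows among the genes counted, and these values are listed under a single identifier. Eif2s1, the substrate of PKR, was at 213 and 159 CPM (-0.42, from -0.44 to -0.39), while Atf4 was at 0.30.

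Ifnb1 was the interferon gene with the most UMIs in the mutant library, while in the control library Ifnb1, Ifnk and Ifnz had 2 UMIs each. Of the 25 listed interferon genes and receptors, 18 had 0 UMIs in both libraries, among them all interferon alpha genes in the table, Ifne and Ifng. The receptor genes past 5 CPM were Ifnar1 (0.38), Ifnar2 (0.36), Ifngr1 (0.87) and Ifngr2 (0.39), with 0 of the 4 past 2-fold. Of 13 cytokine genes 12 were in the table. In the cells with Ifnb1 the chemokine genes Ccl5, Cxcl9 and Cxcl10 were at log2 ratios of 5.88 (5.84 to 5.92), 4.98 (4.47 to 5.45) and 3.81 (3.76 to 3.86) over the other mutant cells. They were detected in 26, 8 and 32 of the 32 cells. Nos2, the inducible nitric oxide synthase gene, was at 5.21 (4.97 to 5.45) and Tnf at 1.33 (0.65 to 1.93). Il6, Il10, Il12b and Il1b had 0 UMIs there, which allows up to 5.20 CPM. In the other mutant cells they were at 1.74 CPM or less, so these zeros do not set the cells apart.

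The 10 genes with the highest ratio in those cells, among genes with at least 20 UMIs in at least 10 of them, were Ifnb1 itself, Lipg, Clic5, Gm47336, Ifit1bl1, Tgtp1, Flt1, Ddx4, Fgl2 and Gbp4. Ifit1bl1, a relative of the Ifit genes, was at 1869 CPM (1770 to 1973) against 12.9 CPM (12.3 to 13.6) in the other mutant cells and was detected in 29 of the 32 cells. The endothelial lipase gene Lipg was at 100.2 CPM (78.2 to 126) against 0.199 CPM (0.130 to 0.291), from 10 cells. Tgtp1 and Gbp4, which encode interferon-induced GTPases, were found in 22 and 24 cells. Tgtp1 and Ifit1bl1 belong to families of near copies whose reads may be shared, so their separate levels are uncertain.

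Finally, the genes whose levels followed those of a sensor most closely over the 8 groups of library and state were listed among 5219 genes past 20 CPM. The measure was Pearson's r of log2(CPM + 1), given as a description, since the 8 points share 2 libraries. For Ifih1 they included Ifi209 and Dtx3l, each at r = 0.998. Zbp1 was followed by Epsti1, Gch1 and Ifi209, each also at 0.998, and Tlr7 by Stom (0.999), Irf5 (0.995) and Cd93 (0.995). Dhx58 was followed by H2-M3 (0.995), Napsa (0.993) and Hk3 (0.991), and Eif2ak2 by Susd6, Ier5 and Tmx3 (0.995 each). The values were lower for Cgas, followed by Anapc11 (0.994), Tor1b (0.9797) and Ss18 (0.979), and for Aim2, followed by Afdn (0.978), Chaserr (0.977) and Mif4gd (0.976).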

How the data were processed

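BMDMs of both genotypes were partitioned with a 10x Genomics Chromium 3′ kit (v3.1). The authors deposited 1 matrix per library of unnormalized UMI counts from Cell Ranger, whose header names version 6.1.0. GRCm39 is named as the genome. Their methods also name aggregation, and whether these counts precede it was not stated. UMIs were summed over cells of a library and divided by their total (CPM, per 1e6). With 1 library per group there is no p-value. Intervals are 95% exact Poisson, conditional Poisson for ratios and Clopper-Pearson for shares, and cover counting error only. The Poisson intervals take UMIs of the same cell as independent. A limit at 0 uses 3 counts.

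Called means at least 2-fold, among genes averaging 5 CPM or more over both libraries. For cells with Ifnb1 against other mutant cells, the filter was 5 CPM in the mutant library, which left 8709 genes. The members and all lists were chosen with earlier results of these data known. Named genes are the members, their lists, the 3 genes most like each member past 20 CPM (Pearson's r of log2(CPM + 1)) and the 10 highest in cells with Ifnb1. For Ifih1, 1 of the 3 genes most like it is not reported here. Doublets were kept, since the rule names only genes and mitochondrial UMIs. As an alternative, 333 control and 275 mutant barcodes were removed (0.8% per 1000 barcodes). The neutrophil gate needed 5% and the stromal and class II gates 0.5% of UMIs from 4 genes. Gene coordinates are from GENCODE M39 (GRCm39), which held 31977 of 32544 identifiers. Promoters are from RefSeq (GRCm38.p6), which matched 6 of 10 members. Scripts used Python 3.11.15, scipy 1.17.1 and edgeR 4.0.16 (scaling factors), and were tested on simulated data.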

Additional observations from a re-analysis of the deposited data

How the results depend on the processing

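Over all cells the 9 sensors kept their sign under other scalings, equal weight per cell, doublet removal, other cell filters, and without the gated cells or the cells with Ifnb1. Zbp1 lay between 2.90 and 3.03, Ifih1 between 1.63 and 1.74, Mavs between -0.59 and -0.46 and Sting1 between -0.52 and -0.38, and the number at least 2-fold higher was 3 each time. The median log2 ratio was 0.55 with median-of-ratios scaling, 0.53 without mitochondrial and ribosomal protein genes in the totals, and 0.79 over the 7 members past 20 CPM. Counts for the other gene lists are given for the main scaling only, and those with a gene near the 2-fold line depend on it. The highest median over the states was 1.42 with states at 2000 UMIs. There Tlr7 had no mutant UMI in cells of both gates, so it gave no ratio, and neither did Sting1 with at least 5 UMIs needed. Of 214 values by state, 52 left the interval of the reported value and 0 changed sign where the reported interval left out 0. Thinning to 5000 UMIs gave shares of cells with Ifnb1 of 0% and 0.282%. In cells with Ifnb1, 7 of 63 values left the interval, and Ifih1 was at 2.95 with at least 2 Ifnb1 UMIs. No paired analysis was possible because each group has 1 library. Leaving out a replicate was likewise not possible. Depth limits Mavs, Sting1 and Cgas in the cells with Ifnb1, and all sensors in the 59 mutant cells of both gates.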
